A study of Schizosaccharomyces pombe with 4 samples.

Results

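The 171 nuclear tRNA genes of the fission yeast *Schizosaccharomyces pombe* are described here, as counted in total and in poly(A)+ RNA. They are the features of chromosomes I, II and III whose identifier begins with SPATRNA, SPBTRNA or SPCTRNA, and the 3 letters that follow give the amino acid. They make up 171 of the 12684 features of the count tables, 56 on chromosome I, 68 on II and 47 on III, and they cover all 20 amino acids. The cells were vegetative haploid h- cells labelled wild type, and both groups carry the same alleles, *leu1-32* and *pat1-L95G::kanR*. They were grown in EMM minimal medium for 2 days at 30 °C. Total RNA was depleted of ribosomal RNA and poly(A)+ RNA was enriched with oligo(dT) beads, with 2 biological replicates of each. The library kit, the read length and the instrument changed together with the fraction, so their effects cannot be told apart from it. The libraries held 29055323 to 30650533 counts in total RNA and 25530272 to 30363472 in poly(A)+ RNA. Genes for the M-factor pheromone of h- cells, *mfm1*, *mfm2* and *mfm3*, had 4335 to 40312 counts in total RNA, and *mam2*, the pheromone receptor gene of these cells, had 11104 and 11112. Of the markers of the other mating type, *map2* had 10 to 13 counts in total RNA and *map3* 254 and 259. The poly(A)+ libraries had 765 and 1284 counts of *map3*.

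Transfer RNAs carry amino acids to the ribosome. RNA polymerase III starts their synthesis from 2 promoter elements inside the gene, the A box and the B box, and stops at a run of T residues behind it. The precursor is then cut at its 5′ end by RNase P and at its 3′ end by tRNase Z, receives a CCA end, loses any intron and is heavily modified and folded. Mature tRNAs have no poly(A) tail. In *S. pombe*, tRNA genes are dense around the centromeres, where some of them bound the heterochromatin.

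The annotated genes were 71 to 102 bases long, and all 171 had the same start, end and strand as in the RefSeq annotation of assembly ASM294v3, to which the coordinates and sequences below refer. A B box core, searched as GTTCNANNC on both strands, occurred in 161 of the 171 genes (94.2%), against 2.42% of the first 83 bases of the other features. Behind 167 of the 171 genes, a run of TTTT began within 60 bases, at a median position of 4. The other 4 genes were the upstream members of the 4 closest pairs of tRNA genes on the same strand. These pairs are shown because their genes held about as many counts in total RNA as all other members. Each line runs 5′ to 3′ over the upstream gene and the downstream gene, in lower case, with the spacer between them in capitals.
SPATRNASER.01 and SPATRNAMET.01, chrI:1096369-1096545, + strand: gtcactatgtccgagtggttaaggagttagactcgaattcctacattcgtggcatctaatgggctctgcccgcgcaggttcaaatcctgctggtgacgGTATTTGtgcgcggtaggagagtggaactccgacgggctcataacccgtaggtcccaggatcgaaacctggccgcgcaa
SPATRNASER.03 and SPATRNAMET.03, chrI:4265149-4265324, + strand: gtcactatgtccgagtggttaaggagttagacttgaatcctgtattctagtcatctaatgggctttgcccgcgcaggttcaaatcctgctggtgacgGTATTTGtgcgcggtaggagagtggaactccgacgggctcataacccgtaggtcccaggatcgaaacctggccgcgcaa
SPCTRNASER.11 and SPCTRNAMET.07, chrIII:1689713-1689888, + strand: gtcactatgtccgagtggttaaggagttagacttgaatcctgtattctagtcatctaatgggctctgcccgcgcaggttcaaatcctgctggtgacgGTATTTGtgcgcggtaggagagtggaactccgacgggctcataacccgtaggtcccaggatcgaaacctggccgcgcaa
SPBTRNAMET.05 and SPBTRNAASN.01, chrII:1597996-1598155, - strand: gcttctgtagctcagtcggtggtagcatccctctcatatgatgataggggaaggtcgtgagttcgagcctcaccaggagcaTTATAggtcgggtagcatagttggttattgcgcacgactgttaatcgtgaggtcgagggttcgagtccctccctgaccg
The first 3 pairs join a serine tRNA gene to an initiator methionine tRNA gene through the same spacer of 7 bases, and such dimeric genes are known to be transcribed as 1 precursor in *S. pombe*. SPATRNASER.03 and SPCTRNASER.11 are the suppressor loci *sup3* and *sup9*. Their serine genes differed at 1 of 97 positions, T65C, counted from the 5′ end of *sup3*. The spacer of the methionine and asparagine pair on chromosome II was 5 bases long, and the next closest pair of tRNA genes lay 66 bases apart.

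Nuclear tRNA genes were rarely counted in either fraction. They held 1841 and 1391 counts in total RNA, which is 0.00601% (95% Wilson interval 0.00574 to 0.00629) and 0.00479% (0.00454 to 0.00505) of the library. The poly(A)+ libraries held 64 and 114 tRNA counts, or 0.000251% (0.000196 to 0.00032) and 0.000375% (0.000313 to 0.000451). The mean share was 0.0054% ± 0.000862 for total RNA and 0.000313% ± 8.82e-05 for poly(A)+ RNA (SD, n = 2 each), a ratio of 17.2, and both total RNA libraries lay above both poly(A)+ libraries. The exact permutation test gave p = 0.33 (two-sided), the smallest p that 2 against 2 libraries allow. The intervals cover counting error only.

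Total RNA contained counts for 115 and 128 of the 171 genes, and poly(A)+ RNA for 22 and 38. The mean numbers were 121.5 ± 9.19 and 30.0 ± 11.3 genes (SD, n = 2 each; exact permutation p = 0.33, two-sided, the smallest possible). With at least 10 counts asked for, 29 genes remained in each total RNA library, and 0 and 1 in poly(A)+ RNA. Over both libraries, 141 genes had a count in total RNA and 51 in poly(A)+ RNA, 50 of them in both fractions. A total of 29 genes had no count in any library, where a count of 0 allows up to 3 counts. The detection was uneven: 102 genes were counted in both total RNA libraries, but only 9 in both poly(A)+ libraries.

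The counts were concentrated on few amino acids. In total RNA all 20 amino acids had counts in both libraries. Serine genes led with 575 and 372 counts, followed by methionine with 403 and 291. In replicate 1 the next were isoleucine with 142 and 56, leucine with 121 and 88, and arginine with 103 and 62. Serine and methionine genes together are 20 of the 171 genes, and serine alone held 31.2% and 26.7% of all nuclear tRNA counts while methionine held 21.9% and 20.9%. Per 1000 annotated bases the order of the first 2 was reversed, with 756 and 546 counts for methionine and 500 and 323 for serine. Below methionine the order of replicate 1 did not hold in replicate 2. There isoleucine lay below leucine, proline (81 and 80 counts), asparagine (95 and 75), phenylalanine (57 and 66), arginine and lysine (50 and 59). Asparagine could not be placed above or below arginine. The lowest sums were those of tryptophan (7 and 5), cysteine (8 and 12) and histidine (9 and 14), which have 3, 3 and 4 genes.

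In poly(A)+ RNA 19 amino acids had a count in at least 1 library and 13 in both. The exception was aspartate, whose 8 genes had 15 and 20 counts in total and 0 and 0 in poly(A)+ RNA. The highest sums in poly(A)+ RNA were those of serine (8 and 11), methionine (9 and 10), asparagine (2 and 14), valine (6 and 10), lysine (2 and 12), leucine (7 and 7) and phenylalanine (6 and 8). For each of the 20 amino acids, both total RNA libraries exceeded both poly(A)+ libraries in counts scaled to effective library size. This size is the library size times edgeR's TMM normalization factor. Among all 12474 features with a count, taken singly, 40.0% were higher in both total RNA libraries. The gap between the fractions was narrowest for tryptophan, with 7 and 5 counts against 2 and 5, and other scalings were not run for it.

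**Figure D1:**
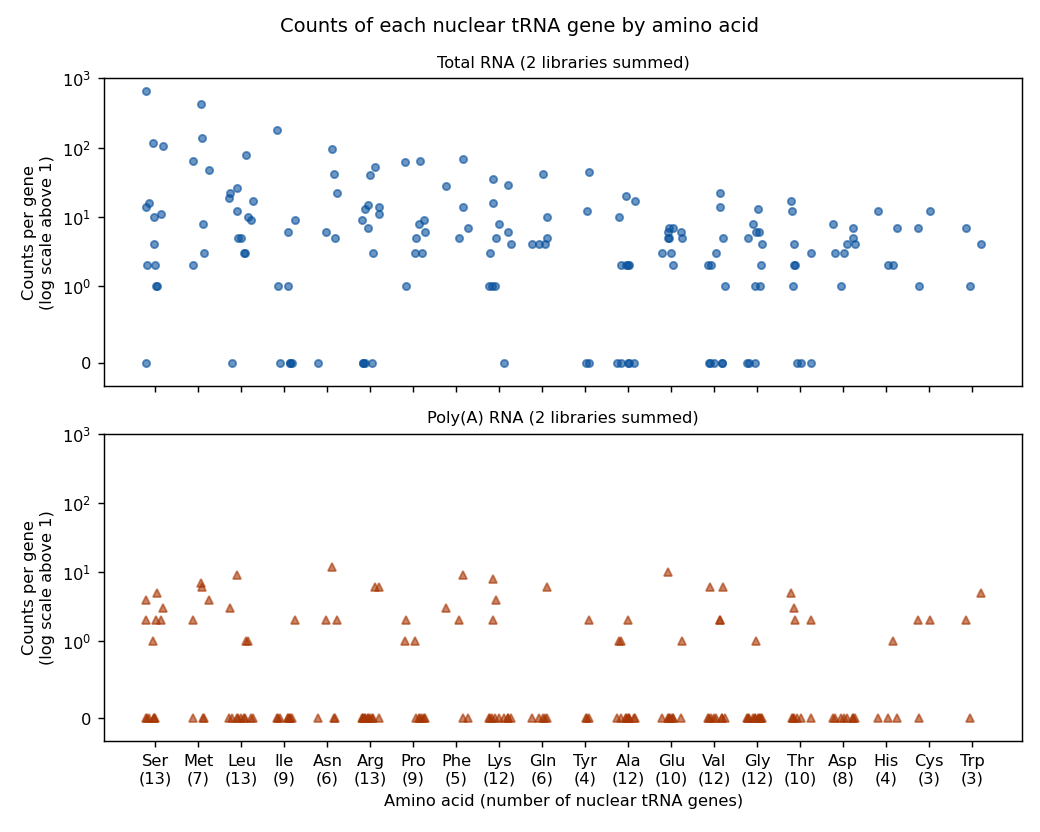
Counts of each of the 171 nuclear tRNA genes, summed over the 2 total RNA libraries (upper panel) and the 2 poly(A)+ libraries (lower panel), by amino acid in order of total RNA counts; the vertical axes are logarithmic above 1 and each point is a gene. Within most amino acids a few genes stand above the rest, reaching 662 counts for serine, while no gene exceeds 12 counts in poly(A)+ RNA.

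Few genes carried the counts within the amino acids too. The 10 highest genes held 63.5% and 56.4% of the nuclear tRNA counts in total RNA, and the median gene had 5 counts over both libraries. The 8 genes of the 4 close pairs held 989 and 673 counts (53.7% and 48.4%) in total and 11 and 26 (17.2% and 22.8%) in poly(A)+ RNA. Per length, these 8 genes took 8 of the 13 highest ranks among the 171, with SPATRNAILE.02 at rank 3.

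The pair SPATRNASER.01 and SPATRNAMET.01 on chromosome I led the whole set. SPATRNASER.01 had 396 and 266 counts in total and 4 and 0 in poly(A)+ RNA, and its partner SPATRNAMET.01 had 250 and 181 against 7 and 0. Per 100 bases this was 404 and 271 counts for the serine gene and 347 and 251 for the methionine gene. The serine gene was higher within each library, though the ranges overlap. A long non-coding RNA gene, SPNCRNA.2479, lies opposite both, and it had only 3 and 0 counts in total and 0 and 6 in poly(A)+ RNA.

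The other 2 serine and methionine pairs were counted less. In *sup3* the serine gene had 74 and 33 counts in total and 0 and 3 in poly(A)+ RNA, and SPATRNAMET.03 behind it had 29 and 19 against 0 and 4. In *sup9* the serine gene had 68 and 49 counts against 0 and 1, and SPCTRNAMET.07 (*imt07*) had 39 and 25 against 0 and 0. In each of the 3 pairs, the upstream serine gene, which is longer, had the higher count in both total RNA libraries. Per 100 bases the serine gene was again higher within each library, though the ranges overlapped here too. The values were 76.3 and 34.0 against 40.3 and 26.4 in *sup3*, and 70.1 and 50.5 against 54.2 and 34.7 in *sup9*. The methionine genes share their sequence and the serine genes do not, so levels within a pair cannot be compared. The counts of the 2 suppressor loci overlapped, but their serine genes differ at only 1 of 97 positions, so their levels cannot be compared. SPNCRNA.7463, a long non-coding RNA gene opposite the *sup9* pair, had 8 and 10 counts in total RNA.

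The initiator methionine tRNA, which starts translation, is encoded by 4 genes of identical sequence. Their total RNA counts were listed from 250 and 181 (SPATRNAMET.01) through 39 and 25 (*imt07*) and 29 and 19 (SPATRNAMET.03) to 5 and 3 (SPBTRNAMET.06, *imt06*). How reads that fit several copies were counted is not given in the sources used here, so these 4 values cannot be compared in level. *imt06* had 0 and 0 counts in poly(A)+ RNA. The pair on chromosome II, SPBTRNAMET.05 and SPBTRNAASN.01, had 79 and 59 and 54 and 41 counts in total RNA, and 0 and 6 and 0 and 12 in poly(A)+ RNA.

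edgeR's quasi-likelihood test was applied to the 11234 features that passed its filter on low counts. A positive log2 fold change means a higher level in poly(A)+ RNA, and p-values were adjusted by the Benjamini-Hochberg method over all features tested. Of the nuclear tRNA genes 22 passed and 149 did not. Genes as sparse as these passed through their total RNA counts, so that a lower level in poly(A)+ RNA was built into their selection, and the number says nothing of the other 149. All 22 were called lower in poly(A)+ RNA, where 35.5% of all tested features were called lower and 49.7% higher, and nothing is read from this count, since the filter fixed its direction. The same limit holds for the values of single genes below, which are given as a description. With library totals as the only scaling or with factors from protein-coding genes, 20 of the 22 were called.

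Of the tested genes 7 had no count in poly(A)+ RNA, and their folds are bounds. They were computed with the TMM factors alone, and other scalings would give other bounds. SPATRNAILE.02, an isoleucine tRNA gene with an intron, had 135 and 46 counts in total RNA and was at least 46.1-fold higher there, or at least 24.5-fold without total RNA replicate 1. SPATRNAPRO.02 (*spl1*), a proline tRNA gene with 38 and 27 counts, was at least 16.7-fold higher, and *imt07* at least 16.4-fold. The other bounds were 10.8-fold for SPBTRNAASN.04 (23 and 19 counts) and SPBTRNAGLN.01 (26 and 16), 10.3-fold for SPATRNAARG.03 (23 and 17) and 7.45-fold for SPBTRNALYS.09 (18 and 11).

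Among the genes with poly(A)+ counts, SPATRNASER.01 reached -7.90 on the log2 scale (standard error 0.70, adjusted p = 9.59e-05 in edgeR) and SPCTRNASER.11 reached -7.15 (0.74, adjusted p = 0.000187). SPBTRNALEU.10, a leucine tRNA gene, had 36 and 42 counts against 0 and 1, and SPBTRNAPRO.07 33 and 28 against 0 and 1. A single count gives wide intervals: the ratio of the summed counts, scaled to effective library size, was 123 for SPBTRNALEU.10. Its exact 95% interval ran from 21.5 to 4934, and the ratio was not computed with the other scalings. SPATRNATYR.01 had 20 and 25 counts against 0 and 2, with the protein-coding gene *dal81* (2782 and 2776 counts in total RNA) on the opposite strand.

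The smallest differences belonged to genes with counts in poly(A)+ RNA. SPATRNALEU.03 had 16 and 10 counts in total and 4 and 5 in poly(A)+ RNA, or -2.15 on the log2 scale (standard error 0.58, adjusted p = 0.0134 in edgeR). For SPATRNALYS.04 the counts were 18 and 17 against 0 and 8, and the log2 fold change -2.79 (0.92, adjusted p = 0.0281). Neither was called with library totals (adjusted p = 0.0739 and 0.0979) or with factors from protein-coding genes (0.108 and 0.127), and neither was called without total RNA replicate 1 (0.143 and 0.11). SPATRNALYS.04 was also not called without total RNA replicate 2 (0.106), nor SPATRNALEU.03 without poly(A)+ replicate 2 (0.0508). SPCTRNAPHE.05, with 16 and 12 against 3 and 0 counts, was not called without total RNA replicate 1 (0.0772).

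**Figure D2:**
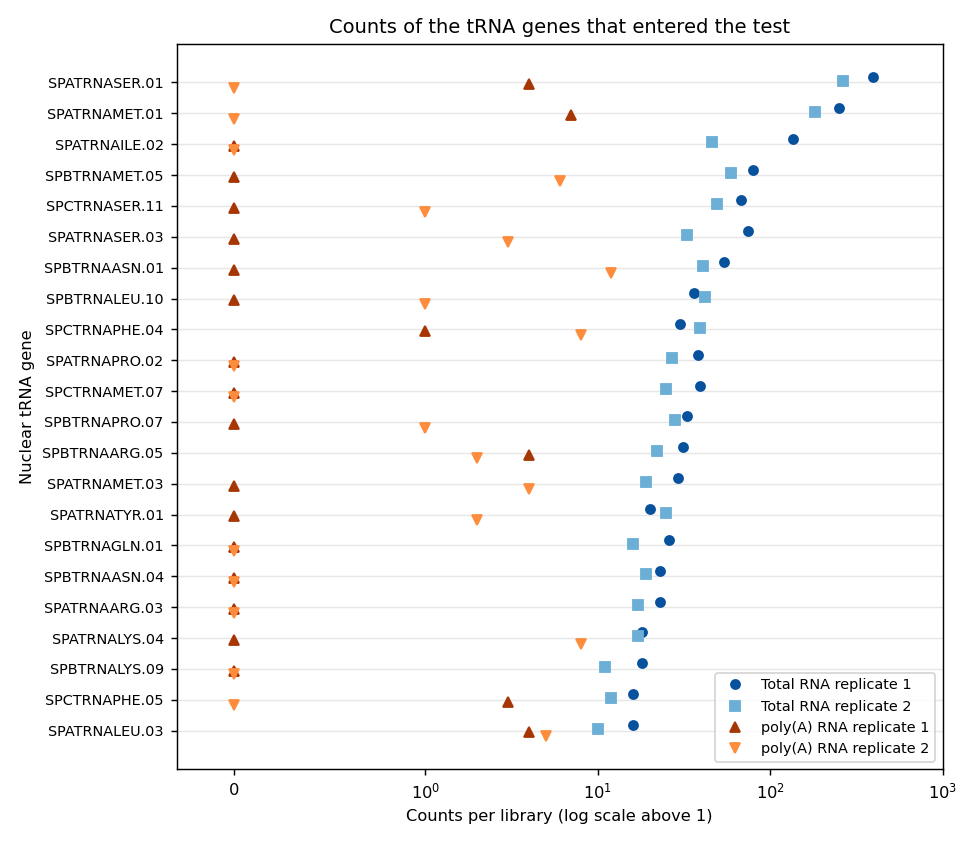
Counts in each of the 4 libraries for the 22 nuclear tRNA genes that passed the filter on low counts, ordered by their total RNA counts; the horizontal axis is logarithmic above 1, with 1 symbol per library. For all 22 genes both total RNA symbols lie to the right of both poly(A)+ symbols, a direction built into their selection by the filter. The counts run from 396 and 266 against 4 and 0 for SPATRNASER.01 to 16 and 10 against 4 and 5 for SPATRNALEU.03.

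Without a filter, the libraries can be set side by side for all members. In counts scaled to effective library size (CPM), both total RNA libraries lay above both poly(A)+ libraries for 98 of the 142 genes with a count. The reverse held for 0. The 98 include genes near 0, such as SPATRNAALA.05 and SPCTRNAVAL.09 with 1 and 1 counts against 0 and 0. A count of 0 allows up to 3 counts, so such genes cannot be ordered. The number also depends on the scaling. SPATRNAARG.01 is among the 98 with 6 and 5 against 6 and 0 counts. By library totals its poly(A)+ replicate 1 would lie above both total RNA libraries. Among all 12474 features with a count, 40.0% were higher in both total RNA libraries. The remaining tRNA genes with counts overlapped between the fractions.

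In poly(A)+ RNA 21 genes had at least 3 counts in a library, and 13 of them had 0 in the other one. SPBTRNAASN.01 had the highest value, 12 counts in replicate 2 and 0 in replicate 1. Up to 8 counts were reached by SPCTRNAPHE.04 (1 and 8; 30 and 39 in total RNA) and SPATRNALYS.04, and 7 by SPBTRNAGLU.05 (3 and 7; 4 and 2 in total RNA). The last had more summed counts in poly(A)+ RNA than in total RNA, and so had SPBTRNATRP.02 (2 and 3 against 3 and 1), SPATRNAVAL.03 (4 and 2 against 4 and 1) and SPATRNASER.04 (4 and 1 against 0 and 1), although the libraries of the 2 fractions overlapped for all 4 genes. SPBTRNAGLN.02 had 2 and 4 against 5 and 5, SPATRNAARG.01 had 6 and 0 against 6 and 5, SPCTRNATHR.10 0 and 5 against 8 and 9, SPATRNALYS.01 0 and 4 against 2 and 3, and SPBTRNALEU.09 3 and 0 against 9 and 13. SPCTRNAVAL.12 was the only gene counted in poly(A)+ RNA alone, with 0 and 6 counts.

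Counts on the opposite strand limit some of these values. No tRNA gene overlapped a feature on its own strand, while 24 overlapped one on the other strand, and the options for strand are not given in the sources used here. Among them are 3 of the genes just named: SPATRNASER.04 lies opposite SPNCRNA.4450 (212 and 384 counts in poly(A)+ RNA), SPATRNAVAL.03 opposite SPNCRNA.2990 (10 and 10) and SPBTRNATRP.02 opposite SPNCRNA.4841 (10 and 15). The part of these neighbours in the tRNA counts was not tested. Over the 147 genes without such a neighbour, the share of library counts was 0.00331% and 0.00264% in total and 0.000125% and 0.000329% in poly(A)+ RNA.

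Introns of tRNA genes are short and sit next to the anticodon, so a precursor that still holds one can be longer than the tRNA. The annotation gives 44 of the 171 genes an intron of 7 to 30 bases. These 25.7% of the genes, with 29.6% of the annotated bases, held 1002 and 656 counts in total RNA (54.4% and 47.2% of the nuclear tRNA counts). Without the 4 close pairs their share was 45.2% and 34.7%. The share in poly(A)+ RNA was 40.6% and 37.7%, from 26 and 43 counts. An example without and an example with poly(A)+ counts show the intron in capitals.
SPATRNAILE.02, chrI:2578426-2578524, + strand: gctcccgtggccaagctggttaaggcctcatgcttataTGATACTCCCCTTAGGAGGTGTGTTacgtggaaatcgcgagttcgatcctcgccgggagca
SPBTRNAARG.05, chrII:1160893-1160994, - strand: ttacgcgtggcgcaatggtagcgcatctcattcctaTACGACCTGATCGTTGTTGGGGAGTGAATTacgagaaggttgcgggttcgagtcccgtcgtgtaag
SPATRNAILE.02 is the only isoleucine gene with an intron, 25 bases long, and also the only one whose sequence no other gene shares. It held 135 of the 142 and 46 of the 56 isoleucine counts in total RNA. The part of either trait in this was not tested. SPBTRNAARG.05, whose intron of 30 bases is the longest, had 31 and 22 counts in total and 4 and 2 in poly(A)+ RNA. Among genes of 1 copy, all 19 with an intron had total RNA counts, with a median of 19 over both libraries, and 16 of the 18 without an intron, with a median of 8.5. The order was not the same among genes with copies, where 16 of the 25 with an intron had total RNA counts (median 3) and 90 of the 109 without (median 4).

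The 171 genes have 68 different sequences, since 134 of them share theirs with at least 1 other gene. Over whole genes, 37 were unique, and the largest family was a set of 9 alanine genes. Copies can be told apart only by what lies beside them. The genes were therefore split into those of 1 copy, those with copies but flanks of 20 bases that make them unique (95), and those that share the flanks as well (39).

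Total RNA counts differed between these classes. Of the 37 genes of 1 copy 35 had counts, with a median of 13 over both libraries and a highest value of 662. Of the 95 genes with copies but their own flanks 88 had counts, with a median of 5 and a highest value of 431. Of the 39 genes with shared flanks 18 had counts, with a median of 0 and a highest value of 8. In sum the last class held 27 and 35 counts in total RNA (1.47% and 2.52%) and 0 and 0 in poly(A)+ RNA. How reads that fit several places were counted is not given in the sources used here, so copies of a gene cannot be compared in level, and the part of this in the zeros was not tested.

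The 2 genes of 1 copy without any count were SPBTRNAGLY.05 and SPBTRNATHR.06. Of the 20 families with 3 or more members, 10 had a member without total RNA counts. The counts listed within a family could lie far apart: the 8 arginine genes of the SPATRNAARG.02 sequence ranged from 0 to 40 counts, with SPATRNAARG.03 at the top, and the 6 proline genes of the SPATRNAPRO.03 sequence from 1 to 61, with SPBTRNAPRO.07 at the top. The 8 genes of the aspartate sequence stayed between 1 and 8.

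**Figure D3:**
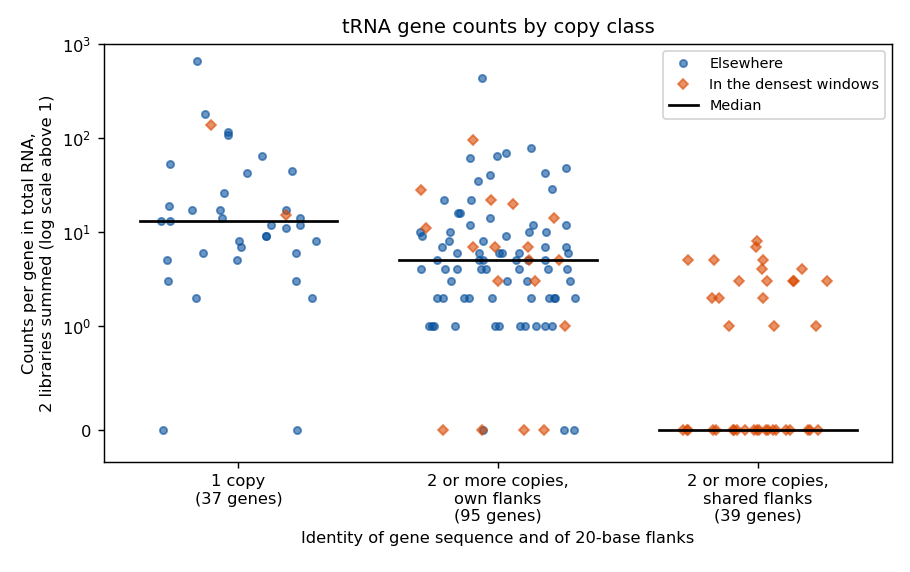
Total RNA counts of each nuclear tRNA gene, summed over 2 libraries on an axis that is logarithmic above 1, for genes of 1 copy (37), genes with copies but their own flanks (95) and genes whose 20-base flanks are shared too (39); black bars are medians. The medians are 13, 5 and 0, and all 39 genes of the last class lie in the windows of dense tRNA genes (diamonds).

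Genes near the centromeres were taken as those in the 100 kb window of each chromosome that held the most tRNA genes, since the annotation names no centromere. The windows were chrI:3700665-3800664 with 11 tRNA genes, chrII:1597996-1697995 with 27 and chrIII:1065044-1165043 with 21, together 59 of the 171. They were rich in repeats: 36.9%, 39.2% and 69.6% of their 31-base words occurred more than once in the genome, against 2.75%, 3.09% and 4.79% of those in the rest of each chromosome. A total of 39 of the 59 genes had a copy with the same flanks, and 0 of the 112 other genes.

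Fewer of these genes had counts. In total RNA 28 and 32 of the 59 genes were counted, against 87 and 96 of the 112 others. For poly(A)+ RNA the numbers were 2 and 5 of 59 against 20 and 33 of 112. Of the 29 genes without any count, 24 lay in the windows. Where only genes with their own flanks were taken, 14 of 18 window genes with copies had total RNA counts, against 74 of 77 elsewhere, with medians of 6 and 5 counts over both libraries. Of the genes of 1 copy, 2 of 2 in the windows and 33 of 35 elsewhere had counts.

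The window genes held 13.5% (95% Wilson interval 12.04 to 15.2) and 13.9% (12.2 to 15.9) of the nuclear tRNA counts in total RNA. In poly(A)+ RNA they held 7.81% (3.38 to 17.0) and 24.6% (17.6 to 33.2), so that the replicates lay on both sides of total RNA. The means were 13.7% ± 0.298 and 16.2% ± 11.8 (SD, n = 2 each), and the exact permutation test gave p = 1 (two-sided; smallest possible 0.33). In poly(A)+ RNA replicate 2, 18 of the 28 window counts came from the pair SPBTRNAMET.05 and SPBTRNAASN.01. Without the 4 close pairs, the shares were 13.6% and 13.1% against 9.43% and 11.4%.

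Each window begins at a tRNA gene by construction, and the pair just named holds the first 2 genes of the window on chromosome II. Both exceeded every other gene in the 3 windows, with 138 and 95 counts over both total RNA libraries. On the same chromosome, SPBTRNAARG.07 had 12 and 2, SPBTRNALYS.08 2 and 6, and SPBTRNALEU.07 4 and 1. SPBTRNAASP.05, SPBTRNALEU.06, SPBTRNAGLU.06, SPBTRNAGLU.07, SPBTRNAVAL.07, SPBTRNALYS.07 and SPBTRNAILE.07 had 1 to 4 over both libraries. The other 15 of the 27 genes had none in any library.

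On chromosome I, 9 of 11 window genes had counts, led by SPATRNAVAL.04 with 10 and 12 in total and 0 and 2 in poly(A)+ RNA. SPATRNAARG.02 had 3 and 4, SPATRNAPHE.02 6 and 1 and SPATRNAPHE.01 2 and 3, the last also with 2 and 0 in poly(A)+ RNA. SPATRNAGLU.03, SPATRNAGLU.04, SPATRNAALA.05, SPATRNACYS.03 and SPATRNAILE.03 had 1 to 5 over both total RNA libraries. None of them reached the level of the pair on chromosome II.

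On chromosome III, 14 of 21 window genes had counts. SPCTRNAPHE.05 had 16 and 12 in total RNA, SPCTRNAALA.12 10 and 10, SPCTRNAARG.10 12 and 3 and SPCTRNASER.09 5 and 6. SPCTRNAASP.07, SPCTRNAGLU.10, SPCTRNALEU.11, SPCTRNALYS.10, SPCTRNAASP.05, SPCTRNAASP.06, SPCTRNAARG.11, SPCTRNALEU.13 and SPCTRNAVAL.09 had 2 to 7 over both libraries. SPCTRNAVAL.12 had 0 in total RNA, and its 6 poly(A)+ counts were given above. Poly(A)+ counts were otherwise found for SPCTRNAPHE.05 (3 and 0) and SPCTRNASER.09 (0 and 2).

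**Figure D4:**
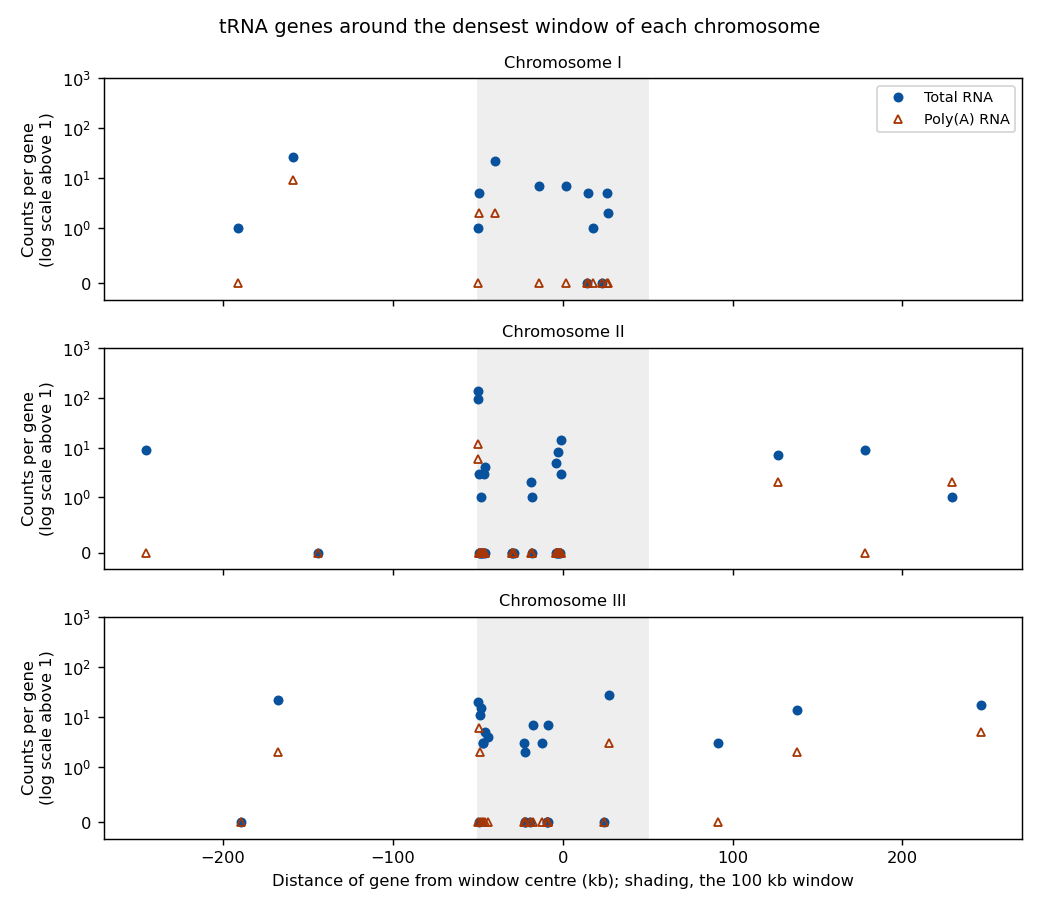
Counts of each nuclear tRNA gene in total RNA (filled circles) and poly(A)+ RNA (open triangles), 2 libraries summed on an axis that is logarithmic above 1, against its distance in kb from the centre of the densest 100 kb window (shaded) of chromosomes I, II and III. The pair at the start of the window on chromosome II, where the window was made to begin, at 138 and 95 total RNA counts, stands above the other window genes, and 24 window genes lie at 0 in both fractions.

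The aspartate identifiers needed a check against the annotation. In RefSeq 5 of the 8 genes named ASP carry the product tRNA-Asn, and the product fitted the identifier for the other 166 members. Of these 5, SPCTRNAASP.05, SPCTRNAASP.06, SPCTRNAASP.07 and SPCTRNAASP.08 had the same sequence as the genes annotated tRNA-Asp. It holds the aspartate anticodon GTC, in capitals below, whereas the asparagine genes hold GTT. SPBTRNAASP.05 is annotated on the + strand, and its reverse complement gave the same aspartate sequence.
SPCTRNAASP.05, chrIII:1068029-1068099, + strand: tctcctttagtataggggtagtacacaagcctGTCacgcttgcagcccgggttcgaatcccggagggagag
SPBTRNAASP.05, chrII:1602347-1602417, - strand, opposite to its annotation: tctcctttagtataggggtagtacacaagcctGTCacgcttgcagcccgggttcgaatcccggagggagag
SPCTRNAASN.05, chrIII:947262-947335, + strand: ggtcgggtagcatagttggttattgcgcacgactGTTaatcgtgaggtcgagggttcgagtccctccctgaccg
The 8 genes had 1 to 8 counts each over both total RNA libraries. SPBTRNAASP.05 had 2 and 2 counts, within the range of the others.

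Genes that make, process and charge tRNAs are protein-coding and were tested in the same fit. Of the 76 genes 67 were called in either direction (88.2%), against 85.3% of all features tested. Their direction depended on the scaling, because the median log2 fold change of all protein-coding genes tested was -0.93 with the main factors and 0.043 with factors from protein-coding genes. The list of aminoacyl-tRNA synthetases, which load tRNAs with amino acids, held 36 genes, among them a synthetase cofactor. It was taken by product name and includes mitochondrial enzymes, which the names do not mark. Of the 36 genes 32 were called lower and 2 higher in poly(A)+ RNA, with a median of -1.61. With factors from protein-coding genes, 22 were called lower and 5 higher. Over all features tested, 35.5% were called lower and 49.7% higher in the first case, and 12.7% and 61.0% with factors from protein-coding genes.

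The lowest synthetases were *vrs1*, for valine, with 31208 and 30601 counts in total and 5094 and 6879 in poly(A)+ RNA (log2 fold change -3.03, standard error 0.10, adjusted p = 4.03e-06 in edgeR), and *irs1*, for isoleucine, with 32843 and 31803 against 6339 and 7862 (-2.84). The highest were *slm5*, annotated for asparagine, with 280 and 250 counts in total and 2770 and 3526 in poly(A)+ RNA (2.91, standard error 0.14), and the threonine ligase SPAC24C9.09 with 437 and 321 against 902 and 1274 (0.86). The last call was lost with DESeq2's size factors (adjusted p = 0.137) and in DESeq2 itself (0.159).

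Of 20 genes for subunits of RNA polymerase III, TFIIIB and TFIIIC, which transcribe tRNA genes, 17 were called lower and 0 higher, with a median of -1.01, whereas factors from protein-coding genes gave 4 lower and 5 higher, against the same 12.7% and 61.0% of all features. The polymerase's largest subunits were lowest. *rpc1* had 4513 and 4494 counts in total and 781 and 1810 in poly(A)+ RNA (log2 fold change -2.51), and *rpc2* 2662 and 2741 against 548 and 1308 (-2.26). *rpc11* and *rpc17* had log2 fold changes of -0.07 and -0.04 and did not pass the test (adjusted p = 0.687 and 0.892).

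Of 19 genes for the cutting, end repair and splicing of tRNA precursors, 12 were called lower and 3 higher, with a median of -0.80, and 5 lower and 8 higher with factors from protein-coding genes (all features 12.7% and 61.0%). *trl1*, the ligase that joins tRNA exons, had 2362 and 2271 counts in total and 464 and 733 in poly(A)+ RNA (-2.63), and *pop5*, a subunit of RNase P and RNase MRP, 1246 and 1155 against 506 and 682 (-1.68). *rpr2*, another RNase P subunit, had 238 and 178 against 954 and 1200 (1.72, adjusted p = 0.000253 in edgeR). *sen15*, of the splicing endonuclease, had 187 and 208 against 362 and 619 (0.62, adjusted p = 0.0408), a call lost with DESeq2's size factors (0.631), in DESeq2 (0.693), with the replicate block (0.0537) and without total RNA replicate 1 (0.174), total RNA replicate 2 (0.073) or poly(A)+ replicate 2 (0.12). *maf1*, the repressor of RNA polymerase III, had 743 and 710 counts in total and 744 and 638 for poly(A)+ RNA. The log2 fold change came to -0.69 (adjusted p = 0.0317), 0.04 with library totals and 0.28 with factors from protein-coding genes, and it was not called without total RNA replicate 1 (0.101) or 2 (0.109).

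**Figure D5:**
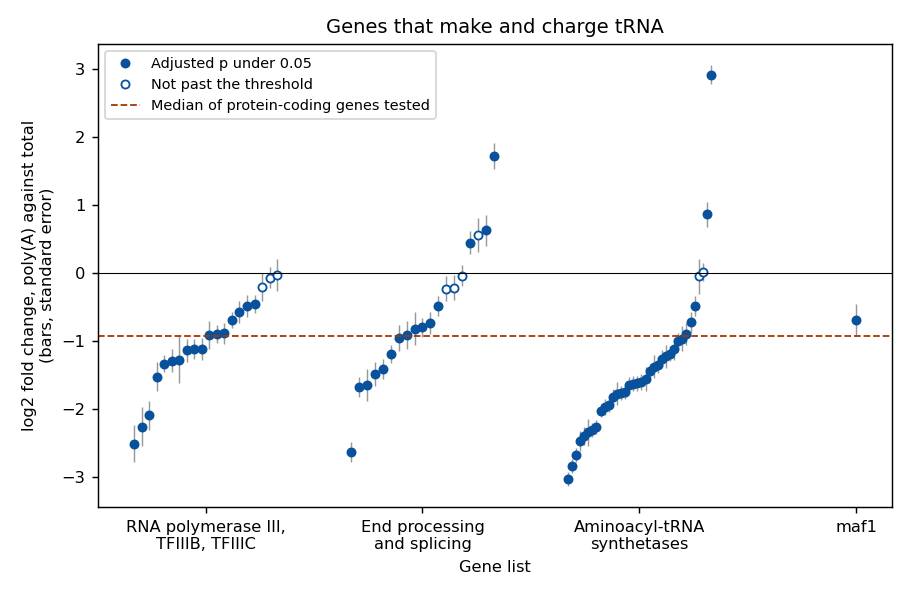
Log2 fold change of poly(A)+ against total RNA with its standard error for 20 genes of the RNA polymerase III machinery, 19 of tRNA processing, 36 of the synthetase list and *maf1*. Filled points passed the test and the dashed line is the median of protein-coding genes, -0.93. With factors from protein-coding genes this median becomes 0.043. The calls of the first 2 lists then turn from 17 and 12 lower to 4 and 5 lower, and the share of all features called lower from 35.5% to 12.7%.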

How the data were processed

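The counts of the 4 libraries were joined by feature. They are whole-number counts that the authors deposited without normalization. Per the labels and methods, reads were trimmed with cutadapt 1.15 or fastp 0.23.1, aligned with STAR 2.6.1d and counted with featureCounts (Subread 2.0.6). The genome build and the counting options are not given in the sources used here. The table headers stand 1 place off, and fields were taken by position. The deposited columns titled Length by this shift also hold counts. Of the 12684 features 99.4% matched RefSeq (ASM294v3) by identifier.

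Poly(A)+ was set against total RNA in edgeR 4.0.16 under R 4.3.3 (TMM, filterByExpr, glmQLFit, glmQLFTest; adjusted p under 0.05), DESeq2 1.42.0 being an alternative. The standard error is the log2 fold change divided by the square root of F. Folds against 0 counts are bounds at 3 counts per library, on the TMM scale. Single values per library were compared with exact permutation tests, shares with Wilson intervals at 95%. The test, tried on simulated data with 200 changed genes, found 97.5% of these and made 8 false calls in a run on 11092 genes. These figures are for all genes of the run together. How the test does for genes with as few counts as the tRNA genes, or under the other scalings, was not tested. Replicates differed by more than counting noise (chi-square of tRNA counts per degree of freedom 1.86 in total and 2.53 in poly(A)+ RNA).

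The members and gene lists were chosen with earlier results of these data known. Named were the tRNA genes that passed the filter, that had at least 3 counts in a poly(A)+ library or that lay in a window with a count, and the 2 highest and 2 lowest genes of each list. *imt06*, SPBTRNAGLY.05, SPBTRNATHR.06, SPCTRNAASP.08 and SPCTRNAASN.05 were named after their values were seen. Ligases were taken by product name, so that mitochondrial enzymes are among them. Alternatives were 3 other scalings, DESeq2, 2 other filters, a replicate block, other count minimums, tRNA genes without overlapping features, rRNA left out of the denominator, other definitions of copies and each library left out. Windows of 60 and 140 kb and the omission of the close pairs were added after seeing the data.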

Additional observations from a re-analysis of the deposited data

How the results depend on the processing

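The share of library counts on tRNA genes was lower in poly(A)+ RNA by 4.11 on the log2 scale, and the same direction held under every alternative run, from -4.43 to -3.85 with a library left out and at -3.40 without the close pairs. The number of genes with counts differed by -91.5 between poly(A)+ and total RNA, and by -99.5 to -83.5 with a library left out. The number of tested tRNA genes called lower was 22, where 35.5% of all features tested were called lower. A library left out leaves a fraction with 1 library that is assumed to vary like the other, so numbers of calls are not given for it. Without a filter 52 of 142 were called lower, against 4016 of all 12474 features tested. At a mean of at least 50 counts it was 2 of 2, against 3758 of 10014. The numbers differ because other numbers of genes entered. With the replicate number as a block 22 were called; the numbers do not pair the libraries (correlation of deviations between fractions -0.0175 across genes), and *sen15* was the only named gene to lose its call. The difference in the share of counts near centromeres, 2.45 percentage points, had no stable direction: it was -0.57 with windows of 60 kb, -2.95 without the close pairs, and -5.92 to 10.8 with a library left out. In poly(A)+ RNA 6 amino acids had at least 10 counts in a library, against 19 with at least 1. Genes of 1 copy had total RNA counts more often by 15.5 percentage points, and by 47.0 where the 20-base flanks had to match too. Among the genes that make and process tRNA 67 of 76 were called, 62 lower and 5 higher. Of all 11234 features tested, 3992 were called lower and 5586 higher. With library totals the genes became 36 and 9, and all features 1906 and 6370. Factors from protein-coding genes gave 31 and 18, against 1430 and 6852 of all features. DESeq2's size factors gave 68 and 2, against 4758 and 5268. The RNA polymerase III genes called lower, 17, became 5 with library totals and 4 with factors from protein-coding genes. *rpc11* changed sign with these 2 scalings (0.68 and 0.91), *rpc17* with them (0.72 and 0.94), with the stricter filter (0.013) and with a library left out (-0.27 to 0.22), and *maf1* with library totals and factors from protein-coding genes (0.042 and 0.28). The cause was not tested. Windows defined by distance from an annotated centromere were not run, since the annotation used holds no centromere.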

Other observations

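The mitochondrial tRNA genes, which lie outside the members described, were counted far more than the nuclear ones. All 25 had counts in both total RNA libraries, 13027 and 12284 in sum, where the 171 nuclear genes held 1841 and 1391. In poly(A)+ RNA the same 25 genes had 0 and 0 counts, where 3 counts would be 1.18e-05% and 9.88e-06% of the library.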
